A study of Gallus gallus with 6 samples.

Results

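Periostin (POSTN), decorin (DCN), osteopontin (SPP1), osteoprotegerin (TNFRSF11B) and cartilage oligomeric matrix protein (COMP) were followed across 6 libraries of chicken feather follicle RNA. They were selected by gene symbol or record description, and they are 5 of the 10964 RefSeq transcript records listed in at least 1 library, with 1 record each. The selection was made with values of these same libraries known, so the levels and ratios below are a description. DCN, POSTN and TNFRSF11B carried their symbols in the tables, whereas SPP1 and COMP were listed under LOC numbers as osteopontin and as a predicted record similar to cartilage oligomeric matrix protein, and were named through their gene identifiers.

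The libraries were made from total RNA of the growth-phase dermal papilla, the growth-phase mesenchymal pulp, the growth-phase feather epithelium, the resting-phase dermal papilla, and the feather follicle in regeneration 2 and 4 days after wounding. The dermal papilla is the mesenchymal cluster at the follicle base, the pulp is the mesenchyme that fills the growing feather, and the regenerating samples are labelled as follicle, not as dissected papilla. The labels do not state breed, age, sex or how many birds were pooled. Each group had 1 library, so no difference below has a replicate check and no test across genes was made.

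Matricellular proteins are secreted into the extracellular matrix, where they bind cells and matrix fibres and modulate adhesion and signalling more than they bear load. Periostin binds collagen, fibronectin and integrins and is typical of fibroblasts in skin, bone and healing wounds. Decorin is a small leucine-rich proteoglycan that coats collagen fibrils and binds TGF-beta. COMP is a thrombospondin of cartilage, tendon and fibrous tissue that bridges collagens, osteopontin is an acidic integrin-binding glycoprotein of bone that activated macrophages and other cells also secrete, and osteoprotegerin is a soluble decoy receptor for the osteoclast factor RANKL and for TRAIL.

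Library totals lay between 3269376 reads (day 2) and 3410045 reads (growth papilla) for papilla and follicle, with 5683214 reads in the pulp and 6064791 in the epithelium, and 40.0% to 44.5% of them fell on listed records. Levels are given as scaled CPM, reads divided by that total and by a composition factor (TMM) and expressed as CPM, with exact Poisson 95% intervals that cover counting error only. Levels are not divided by transcript length, so they are compared between libraries and not between genes. The tables hold no value under 2, so absence from a table was read as 0 or 1 counts, and the bound for that library was set at 3 counts. The pulp and epithelium tables were deeper than the other 4 and had another text layout, which cannot be told apart from the tissues. Of 7205 records that reached 20 reads in 1 or more libraries, 30 (0.416%) lay at least 4-fold lower in both of these libraries than in each of the other 4, and DCN, POSTN, TNFRSF11B and COMP were 4 of those 30.

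DCN was high and level in papilla and follicle libraries and low in pulp and epithelium. Its scaled CPM was 286 (269 to 305) in the growth papilla, 57.3 (51.3 to 63.8) in the pulp, 20.9 (16.7 to 25.7) in the epithelium, 268 (251 to 285) in the resting papilla, 316 (298 to 335) on day 2 and 245 (230 to 261) on day 4, from 973, 333, 87, 975, 1161 and 964 reads. The 4 papilla and follicle libraries spanned a ratio of 1.29 from highest to lowest, and none of them overlapped the pulp or epithelium. In order of level, day 2 stood above the growth papilla by a ratio of 1.10 (1.01 to 1.20). The growth papilla and the resting papilla did not differ beyond counting error (1.07, 0.977 to 1.17), and the resting papilla stood above day 4 by a ratio of 1.09 (1.0 to 1.20). Without composition scaling the log2 ratio of growth over resting papilla turned to -0.03 from 0.10, so its direction was not fixed.

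POSTN had the same division of libraries at a lower read number. It reached 29.1 (23.7 to 35.5) scaled CPM in the growth papilla, 1.55 (0.708 to 2.94) in the pulp, 0.719 (0.148 to 2.10) in the epithelium, 43.7 (37.2 to 51.0) in the resting papilla, 40.0 (33.8 to 47.0) on day 2 and 38.1 (32.2 to 44.7) on day 4. The reads behind these were 99, 9, 3, 159, 147 and 150. The resting papilla, day 2 and day 4 did not differ from their neighbours in this order beyond counting error (ratios of 1.09 and 1.05, with intervals of 0.867 to 1.38 and 0.831 to 1.33). The growth papilla was the lowest of the 4, below day 4 (day 4 over growth papilla 1.31, 1.01 to 1.70).

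TNFRSF11B was highest in the resting papilla. It had 65.3 (57.0 to 74.5) scaled CPM in the growth papilla, 4.13 (2.64 to 6.14) in the pulp, 2.16 (0.987 to 4.10) in the epithelium, 129 (118 to 142) in the resting papilla, 93.6 (84.0 to 104) on day 2 and 66.0 (58.2 to 74.5) on day 4, from 222, 24, 9, 471, 344 and 260 reads. From the resting papilla through day 2 to day 4 each step down exceeded counting error, by ratios of 1.38 (1.20 to 1.59) and 1.42 (1.20 to 1.67). Day 4 and the growth papilla did not differ beyond counting error (1.01, 0.842 to 1.21).

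COMP had the widest range of the 4 genes listed in all 6 libraries, with a single high library. It stood at 221 (206 to 238) scaled CPM in the growth papilla, 11.2 (8.63 to 14.2) in the pulp, 11.5 (8.48 to 15.3) in the epithelium, 375 (356 to 396) in the resting papilla, 1767.5 (1725 to 1811) on day 2 and 284 (267 to 301) on day 4. The read counts were 752, 65, 48, 1366, 6494 and 1117, so the day 2 library held 66.0% of all COMP reads. By read count, not divided by transcript length, COMP ranked 24 of 9072 listed records on day 2 and took 0.472% of listed counts there. Its rank was 136 of 8956 in the resting papilla, 170 of 9019 on day 4 and 264 of 8835 in the growth papilla. Every step in the order of its 4 papilla and follicle levels exceeded counting error, while epithelium and pulp did not differ beyond it (1.03, 0.694 to 1.52).

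SPP1 was listed in 3 libraries only. It was not listed in the growth papilla, pulp or epithelium, where 3 counts would be 0.883, 0.516 and 0.719 scaled CPM. It had 9.62 (6.70 to 13.4) scaled CPM in the resting papilla, 74.3 (65.8 to 83.7) on day 2 and 23.6 (19.1 to 28.9) on day 4, from 35, 273 and 93 reads. The 3 values were apart beyond counting error, with day 2 above day 4 and day 4 above the resting papilla.

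**Figure D1:**
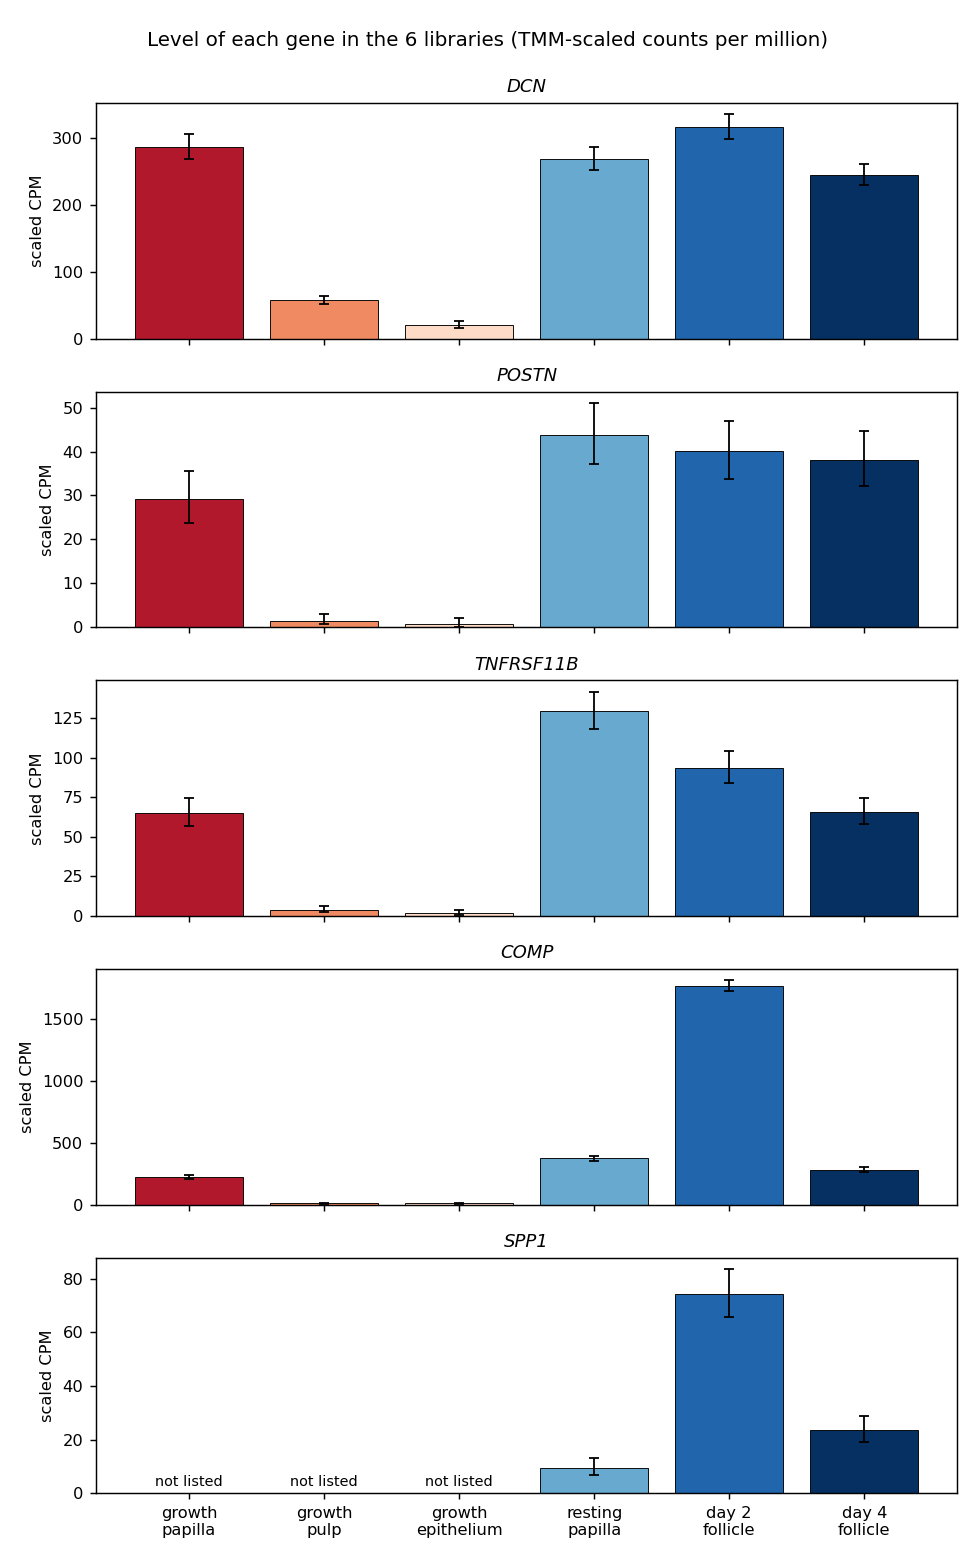
Scaled CPM (linear axes from 0, a separate axis for each gene) of DCN, POSTN, TNFRSF11B, COMP and SPP1 in the 6 libraries, 1 bar for each library, with exact Poisson 95% intervals for counting error. The pulp and epithelium bars are low for DCN, POSTN, TNFRSF11B and COMP, COMP and SPP1 peak on day 2 at 1767.5 and 74.3, and TNFRSF11B is highest in the resting papilla at 129.

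The growth papilla was set against the growth epithelium, the tissue that forms the feather. All 4 genes that reached 20 reads in either library passed 2-fold upwards in the papilla, as did 25.0% of the 6362 records tested (22.7% passed downwards), and SPP1 was listed in neither library. The median log2 ratio of the 4 was 4.14, beside -0.05 over all records, where ratios are of scaled CPM plus a pseudocount of 1. Folds without a pseudocount, with exact conditional binomial 95% intervals, were 40.5 (13.5 to 199.7) for POSTN, which rests on 3 epithelial reads, 30.3 (15.7 to 67.1) for TNFRSF11B, 19.2 (14.4 to 26.3) for COMP and 13.7 (11 to 17.3) for DCN. Without composition scaling the records tested split into 2231 higher and 861 lower in place of 1588 and 1443, the median over all records was 0.45, and these 4 genes stayed at least 2-fold higher. Fibroblast markers moved with them, with 9 of 10 found in the tables and a summed level of 4974 scaled CPM in the papilla and 94.9 in the epithelium, where COL1A1 and TWIST2 were not listed. PDGFRA, also on that list, was listed in neither of these libraries. Smooth muscle markers, 7 of 10 found, summed to 27406 in the papilla and 224 in the epithelium, endothelial markers, 11 of 12 found, to 304 and 17.7, and leukocyte markers, 11 of 14 found, to 374 and 26.9 in the same order. Epithelial markers, 10 of 13 found, summed to 749 in the papilla and 2453 in the epithelium. The keratin KRT14, picked out once its values were known, gave 616 of the papilla sum and 479 of the epithelium sum. It ran against the rest of its list. Of 9 epithelial markers measured in this pair, 7 passed 2-fold downwards and 0 upwards, with a median log2 ratio of -3.05. The part of these cells in the difference was not tested, and in bulk RNA fewer cells of a type and less RNA per cell cannot be told apart.

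Against the growth pulp, which is also mesenchymal, the same 4 genes were higher in the papilla, where 14.7% of 6667 records were at least 2-fold higher (19.1% lower). COMP was 19.8-fold (15.3 to 25.9) higher, POSTN 18.8-fold (9.52 to 42.4), TNFRSF11B 15.8-fold (10.4 to 25.2) and DCN 5.0-fold (4.41 to 5.68). By log2 ratio COMP ranked 37, TNFRSF11B 67, POSTN 77 and DCN 223 from the top of the 6667. The fibroblast list summed to 4974 scaled CPM in the papilla and 4647 in the pulp, and the dermal papilla list, 13 of 17 found, to 1766 in the papilla and 1929 in the pulp. These near-equal sums hide genes that moved in opposite directions. Of 8 fibroblast markers measured, 1 passed 2-fold upwards in the papilla and 1 downwards. Of 12 dermal papilla markers measured, 4 passed upwards and 4 downwards. Smooth muscle markers summed to 27406 in the papilla and 683 in the pulp, and leukocyte markers to 374 and 2049 in the same order. Epithelial markers summed to 749 in the papilla and 112 in the pulp, of which KRT14 gave 616 and 85.1. Of 7 epithelial markers measured in this pair, 7 passed 2-fold upwards. The part of these cells in the difference was not tested.

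In the pulp against the epithelium, DCN was 2.75-fold (2.16 to 3.52) higher in the pulp, where 26.7% of 6851 records were at least 2-fold higher (20.4% lower). TNFRSF11B had 24 reads in the pulp and 9 in the epithelium (ratio 1.91, 0.859 to 4.68), and without composition scaling its log2 ratio passed 2-fold at 1.07. COMP gave a ratio of 0.972 (0.659 to 1.44), and without composition scaling its log2 ratio turned from -0.04 to 0.48. POSTN, with 9 reads in the pulp and 3 in the epithelium, was under 20 reads in both libraries. Without composition scaling the split of all records in this pair was 2625 higher and 761 lower in place of 1832 and 1398, around a median log2 ratio of 0.61.

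**Figure D2:**
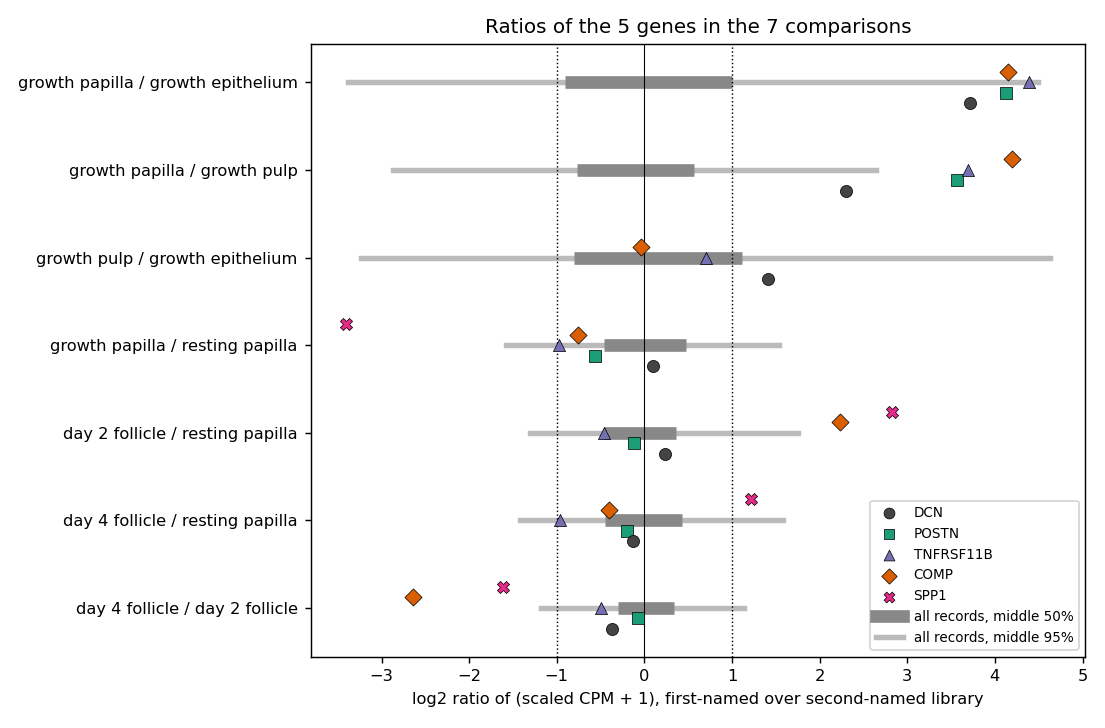
Log2 ratio of scaled CPM plus 1, the library named before the slash over the one after it, for each gene in the 7 comparisons, drawn over the middle 50% and middle 95% of all records tested. Dotted lines mark 2-fold. COMP and SPP1 lie at 2.23 and 2.83 on day 2 over the resting papilla and at -2.64 and -1.61 on day 4 over day 2, while POSTN and DCN lie within 2-fold in all comparisons among papilla and follicle libraries.

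Growth and resting papillae were compared for the phase of the feather cycle. SPP1 alone was past 2-fold, with 0 listed reads in the growth papilla against 35 in the resting papilla, at least 10.9-fold lower in growth, where 7.97% of 5957 records were at least 2-fold lower (9.35% higher). TNFRSF11B was just short of 2-fold, 1.98-fold (1.69 to 2.33) lower in growth, with a log2 ratio of -0.98 that became -1.10 without composition scaling. COMP was 1.70-fold (1.55 to 1.86) lower and POSTN 1.5-fold (1.16 to 1.95) lower in growth, both beyond counting error and within 2-fold. DCN had 973 reads in the growth papilla and 975 in the resting papilla. Among all 5957 records, the median log2 ratio was -0.02, and without composition scaling it was -0.13, with a split of 441 higher and 627 lower in place of 557 and 475. Smooth muscle markers summed to 27406 scaled CPM in the growth papilla and 7674 in the resting papilla, and 6 of 8 epithelial markers were at least 2-fold lower in growth. The part of these cells in the differences was not tested.

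The resting papilla, day 2 and day 4 samples follow the start of regeneration after wounding. Since both later samples are labelled feather follicle and the resting sample dermal papilla, the time after wounding and the tissue taken cannot be told apart in comparisons with rest. On day 2 COMP and SPP1 were higher than in the resting papilla, COMP by 4.71-fold (4.44 to 5.0) and SPP1 by 7.73-fold (5.42 to 11.3), where 7.03% of 6013 records were at least 2-fold higher (6.00% lower). By log2 ratio SPP1 ranked 38 and COMP 76 from the top of the 6013. The other 3 genes stayed within 2-fold, with ratios of 1.18 (1.08 to 1.29) for DCN, 0.916 (0.727 to 1.15) for POSTN and 0.723 (0.628 to 0.833) for TNFRSF11B.

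On day 4 against day 2, COMP and SPP1 were lower again, COMP by 6.23-fold (5.85 to 6.65) and SPP1 by 3.15-fold (2.48 to 4.03), where 3.84% of 6048 records were at least 2-fold lower (3.77% higher). COMP ranked 12 and SPP1 49 from the bottom of the 6048. DCN was 1.29-fold (1.18 to 1.41) and TNFRSF11B 1.42-fold (1.20 to 1.67) lower, and POSTN gave a ratio of 0.952 (0.753 to 1.20). This comparison shares the day 2 library with the one before it, so the fall of COMP and SPP1 is not a separate observation of their day 2 height.

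On day 4 against the resting papilla, SPP1 was 2.46-fold (1.65 to 3.73) higher, where 8.23% of 6090 records were at least 2-fold higher (6.90% lower). Its log2 ratio of 1.21 became 0.97, short of 2-fold, with a pseudocount of 5. COMP was 1.32-fold (1.22 to 1.43) lower and TNFRSF11B 1.96-fold (1.68 to 2.29) lower than in the resting papilla. DCN and POSTN gave ratios of 0.914 (0.835 to 1.0) and 0.872 (0.693 to 1.10). Without composition scaling the split of all records was 625 higher and 344 lower in place of 501 and 420, with the median log2 ratio at 0.07 in place of -0.03.

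Markers of cells that could carry COMP or SPP1 RNA were read beside the day 2 peak. The cartilage and tendon list, with 9 of 14 genes found, summed to 34.9 scaled CPM in the resting papilla, 51.4 on day 2 and 44.9 on day 4. On day 2 against the resting papilla 2 of its 5 measured genes were at least 2-fold higher and 1 lower, beside 7.03% higher and 6.00% lower over all records. The higher ones were the cartilage proteoglycan ACAN, with 48 reads on day 2 against 6 in the resting papilla, and the cartilage collagen COL2A1, with 25 reads on day 2 against 5, while the link protein HAPLN1 had 0 listed reads on day 2 against 21, all named after their values were seen. ACAN had 38 reads and COL2A1 8 reads on day 4, SOX9, the largest part of the sum, had 60 reads in the resting papilla, 69 on day 2 and 54 on day 4, and MATN1 was not listed in these libraries. The leukocyte list summed to 298, 645 and 585 in the same order, with 7 of 8 markers at least 2-fold higher on day 2 than at rest, beside 7.03% of all records. Its highest sum, 2049, was in the pulp. Whether leukocytes carried SPP1 RNA in any of the libraries was not tested. The osteoclast list, with 3 of 8 found, summed to at most 3.81 scaled CPM in any library, and 0 of the 3 were listed in the resting papilla. Smooth muscle markers summed to 7674, 2209 and 2492, epithelial markers to 971, 1565 and 1301, and erythroid markers to 14.0, 159 and 156 from 2 of 7 genes. The keratin KRT14, named after its values were seen, was the largest part of the epithelial sums, at 450, 1051 and 623. Of 9 epithelial markers measured on day 2 against the resting papilla, 2 were higher and 0 lower, with a median log2 ratio of -0.15. Fibroblast markers summed to 4210 in the resting papilla, 5411 on day 2 and 4658 on day 4. On day 2 against rest, 0 of 8 fibroblast markers measured were higher and 1 lower. Endothelial markers summed to 246, 444 and 383 in the same order, with 2 of 7 higher and 0 lower. Dermal papilla markers summed to 1233, 1091 and 883, with 1 of 10 higher and 3 lower. The part of these cells in the day 2 values was not tested.

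Reads of each gene per DCN read in the same library do not depend on the scaling between libraries. They are ratios of reads, not of molecules, since transcript length was not divided out. COMP gave 0.773 (0.702 to 0.851) reads per DCN read in the growth papilla, 0.195 (0.147 to 0.255) in the pulp, 0.552 (0.380 to 0.794) in the epithelium, 1.40 (1.29 to 1.52) in the resting papilla, 5.59 (5.25 to 5.96) on day 2 and 1.16 (1.06 to 1.26) on day 4. SPP1 gave 0.0359 (0.0249 to 0.0503) in the resting papilla, 0.235 (0.205 to 0.269) on day 2 and 0.0965 (0.0771 to 0.119) on day 4. TNFRSF11B per DCN read was 0.483 (0.432 to 0.540) in the resting papilla and lay between 0.0721 and 0.296 in the other 5 libraries. POSTN per DCN read lay between 0.102 and 0.163 in the papilla and follicle libraries, at 0.0270 (0.0123 to 0.0519) in the pulp and, on 3 POSTN reads, at 0.0345 (0.00698 to 0.104) in the epithelium, where the interval reaches the growth papilla's value. Relative to DCN, COMP and SPP1 were highest on day 2 and TNFRSF11B in the resting papilla. These ratios reuse the same reads, and DCN is itself among the genes followed and was level across papilla and follicle. They are therefore not a separate observation of those heights.

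**Figure D3:**
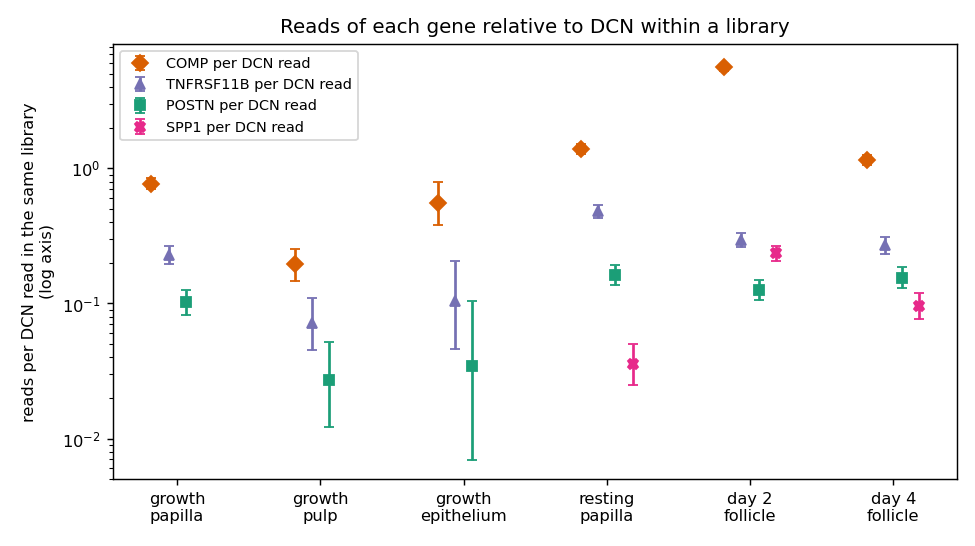
Reads of COMP, TNFRSF11B, POSTN and SPP1 per DCN read in the same library (log axis), with exact 95% intervals for counting error. COMP per DCN read is 5.59 on day 2 and between 0.195 and 1.40 in the other 5 libraries. SPP1 has no point in the 3 growth-phase libraries, where it was not listed.

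Related genes were read from lists of other matricellular proteins, other small leucine-rich proteoglycans, receptors and matrix partners, each counted among members with at least 20 reads in either library. Of the other matricellular proteins, 20 records were found. In the growth papilla 11 of 12 passed 2-fold upwards and 0 downwards against the epithelium (median log2 ratio 3.26, beside -0.05 over all records, of which 25.0% and 22.7% passed), and 7 of 12 upwards and 2 downwards against the pulp (1.24, beside -0.09, with 14.7% and 19.1% of all records). On day 2 against the resting papilla 1 of 13 was higher and 1 lower (median log2 ratio -0.01, beside -0.06), near the 7.03% and 6.00% of all records. These were EFEMP1, a fibulin, with 51 reads on day 2 against 17 in the resting papilla, and SMOC2, a SPARC-related protein, with 3 reads on day 2 against 21 in the resting papilla, both named after their values were seen. Of the thrombospondins other than COMP, THBS1 had the most reads, with 344 on day 2 and 425 in the resting papilla. THBS1 was 2.80-fold (2.34 to 3.38) lower on day 4 than in the resting papilla. THBS2 had 6 reads in the resting papilla, 19 on day 2 and 16 on day 4. THBS4 had 2, 12 and 3 reads in the same order. Both were under 20 reads in every library and so were not measured.

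CCN3, a matricellular protein of the CCN family, was 9.60-fold (8.44 to 10.9) higher in the growth papilla than in the pulp and 2.09-fold (1.92 to 2.28) higher than in the resting papilla. CCN2, the connective tissue growth factor, was 2.24-fold (2.03 to 2.46) lower in the growth than in the resting papilla, the same side as COMP, POSTN and TNFRSF11B. SPARC, a collagen-binding glycoprotein, was 2.42-fold (2.02 to 2.90) higher in the growth papilla than in the resting papilla and 2.11-fold (1.88 to 2.36) lower than in the pulp, so it did not share the low pulp level of POSTN, DCN and COMP.

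Among the other small leucine-rich proteoglycans, the family of DCN, 11 records were found. In the growth papilla 6 of 7 passed 2-fold upwards and 0 downwards against the epithelium (median log2 ratio 4.13), beside 25.0% and 22.7% of all records. Against the pulp 3 of 7 passed upwards and 1 downwards (median 0.89, beside -0.09 over all records), beside 14.7% and 19.1%. LUM, lumican, which is also on the fibroblast list and lies next to DCN in the RefSeq gene order of the GRCg7b assembly, had 5434 reads in the growth papilla, 2177 in the pulp, 108 in the epithelium, 5337 in the resting papilla, 8431 on day 2 and 7961 on day 4. It was 4.27-fold (4.06 to 4.49) higher in the growth papilla than in the pulp, beside 5.0-fold for DCN. BTG1, next to DCN on the other side, had 290 scaled CPM in the growth papilla, 253 in the pulp and 790 in the epithelium. BGN, biglycan, was 11.2-fold (9.03 to 14.0) higher in the growth papilla than in the pulp and 2.72-fold (2.34 to 3.16) higher than in the resting papilla, whereas OGN, osteoglycin, was 4.68-fold (3.79 to 5.82) lower in the growth papilla than in the pulp. In regeneration 0 of 6 passed 2-fold on day 2 against the resting papilla, near the 7.03% higher and 6.00% lower over all records. FMOD, with 26 reads on day 4 against 81 in the resting papilla and named after its values were seen, was the 1 of 6 lower on day 4, beside 6.90% of all records.

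Of the receptors, 15 records were found. On day 2 against the resting papilla 0 of 8 passed 2-fold in either direction (median log2 ratio 0.24, beside -0.06), where 7.03% of all records were higher and 6.00% lower. On day 4 against the resting papilla 1 of 8 was higher and 0 lower, beside 8.23% and 6.90% of all records. The higher one was ITGB3, an integrin subunit of the osteopontin-binding receptor, at 2.12-fold (1.49 to 3.06). ITGB3 had 96 reads on day 2 and 47 in the resting papilla, a fold of 2.02 (1.41 to 2.93) that the pseudocount brought to a log2 ratio of 0.96, and day 4 over day 2 was 1.05 (0.790 to 1.40). Its level in the growth papilla was 25.9 scaled CPM, beside 26.1 on day 2. The integrin subunit ITGAV, also on the list, had 4 reads in the resting papilla and 6 on day 2, and was not listed on day 4. In the growth papilla 4 of 8 receptors were higher and 3 lower than in the epithelium, beside 25.0% and 22.7% of all records. SDC1, the cell-surface proteoglycan syndecan, was 12.1-fold (10.5 to 13.9) lower in the growth papilla than in the pulp. In the osteoprotegerin pathway 4 of 11 genes were found and 0 had at least 20 reads in any library, with TNFRSF11A, the receptor RANK, at 16 reads in the pulp and 12 on each of day 2 and day 4. The bone matrix list had 8 of 13 found, and on day 2 against the resting papilla 1 of 4 measured was higher and 0 lower (7.03% and 6.00% over all records). MGP at 1.23-fold (1.04 to 1.47) and SPARC at 1.51-fold (1.25 to 1.84) stayed within 2-fold. ANKH, at 1.58-fold (0.879 to 2.92) on 32 reads against 20, did not differ beyond counting error. The higher one, FAM20C, a kinase that phosphorylates secreted proteins including osteopontin in mammals, was 2.39-fold (2.10 to 2.72) higher on day 2 than in the resting papilla and 2.13-fold (1.89 to 2.41) lower on day 4 than on day 2. Unlike SPP1, FAM20C was listed in the growth-phase libraries. It had 70.6 scaled CPM in the growth papilla, 26.0 in the pulp and 85.3 in the epithelium, beside 91.2 in the resting papilla.

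Of the collagens and matrix assembly partners, 23 records were found, and 0 of 17 passed 2-fold on day 2 against the resting papilla (median log2 ratio 0.19, beside -0.06), beside 7.03% higher and 6.00% lower over all records, so the count is near the background. In the growth papilla 16 of 19 were higher and 1 lower than in the epithelium (25.0% and 22.7% over all records), and 6 of 19 were higher and 4 lower than in the pulp (14.7% and 19.1% over all records, median 0.01, beside -0.09). COL12A1, a fibril-associated collagen, was 5.89-fold (5.32 to 6.53) higher in the growth papilla than in the pulp, and COL14A1, another of that class, 21.8-fold (10.7 to 51.9) on 8 pulp reads. The 4 lower ones were MATN4, FBN1, COL6A1 and COL6A2. MATN4 had 1.77 scaled CPM in the growth papilla, on 6 reads, and 22.0 in the pulp. In the same order FBN1 had 126 and 676, COL6A1 799 and 2966, and COL6A2 500 and 1688. COL12A1 was 3.13-fold (2.88 to 3.42) lower on day 4 than in the resting papilla, where COL6A1 was 2.18-fold (2.07 to 2.30) higher.

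**Figure D4:**
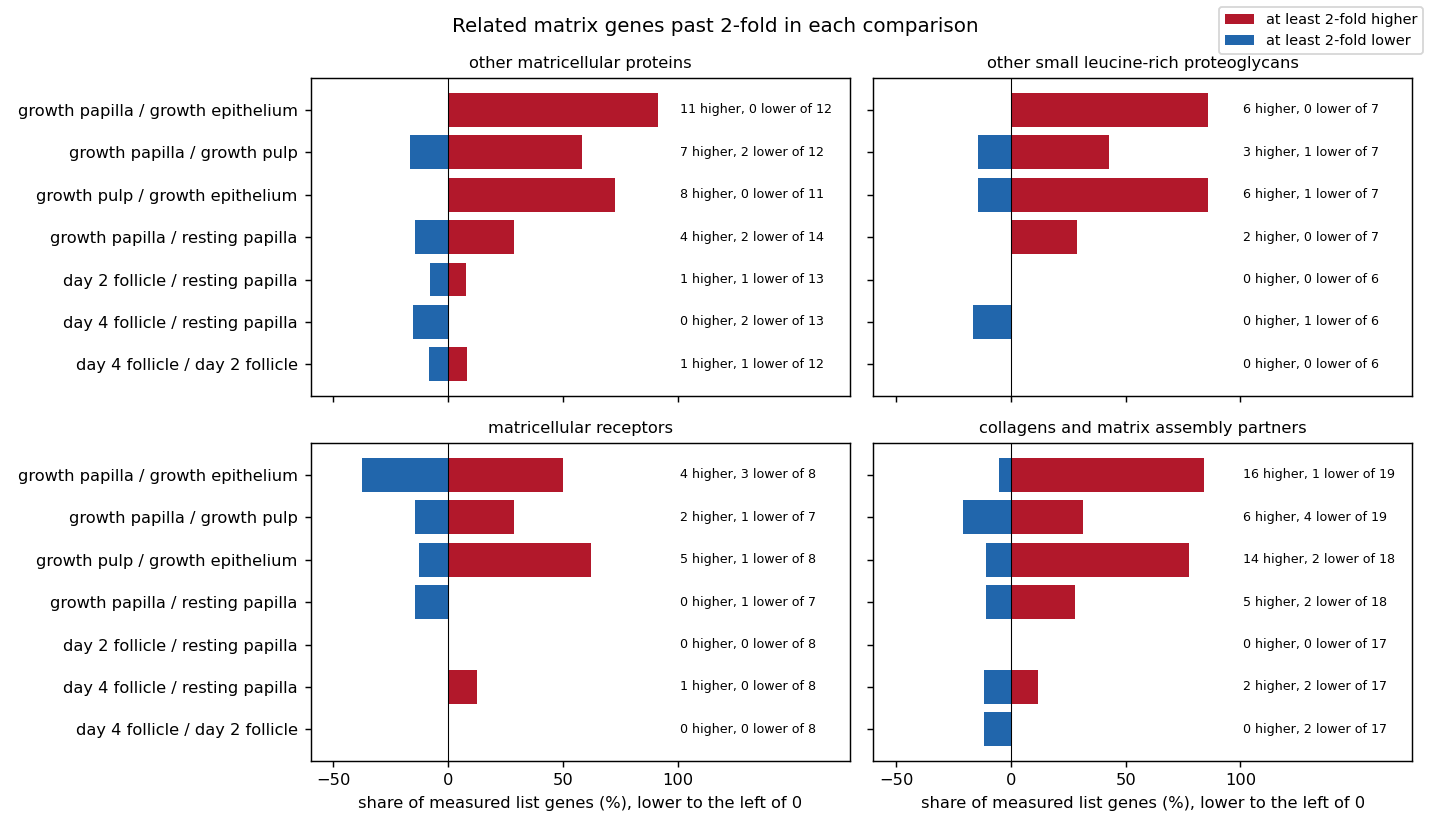
Share of measured genes (%) of 4 gene lists that were at least 2-fold higher (right of 0) or lower (left of 0) in the library named before the slash, with counts printed beside each bar. The shares are large against the epithelium, with 11 of 12, 6 of 7 and 16 of 19 higher in the growth papilla for matricellular proteins, proteoglycans and matrix partners (25.0% of all records), and receptors lie on both sides, with 4 of 8 higher and 3 lower. On day 2 against the resting papilla 1 of 13, 0 of 6, 0 of 17 and 0 of 8 were higher in the same order (7.03% of all records).

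The records whose profile was most like each gene were ranked by Pearson r of log2 scaled CPM plus 1 over the 6 libraries, among 3900 named records that reached 100 reads in 1 or more libraries, with unlisted values entered as 0. These are descriptions over 6 points that share the low pulp and epithelium libraries. POSTN was most like TNFRSF11B (r = 0.995), ahead of the co-chaperone SGTB (0.990), KRR1, CDCA4 and C12orf45. TNFRSF11B was most like the ribosome assembly factor KRR1 (0.995) and POSTN, then SNX14 and DDX46. The size of the differences was not alike. KRR1 had 64.1 scaled CPM in the growth papilla and 33.7 in the pulp, where TNFRSF11B had 65.3 and 4.13.

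DCN was most like the zinc finger factor HIVEP2 (0.990), ZCCHC10, KIFAP3, TRIM3 and CSPG4, a cell-surface proteoglycan of pericytes and other mesenchymal cells. COMP was most like F10, coagulation factor X (0.990), which had 136 reads in the growth papilla, 39 in the pulp, 17 in the epithelium, 208 in the resting papilla, 617 on day 2 and 142 on day 4. VGLL4, the phosphodiesterase PDE4D, VMA21 and MGP, the matrix Gla protein that inhibits calcification, followed at 0.977 to 0.987. PDE4D had 298 reads on day 2 and 89 in the resting papilla, and MGP had 288 and 231. SPP1 was most like SCYL3 (0.970), the keratin KRT75 (0.969), ADM, which encodes the vasodilator peptide adrenomedullin (0.969), EXOC6 and MST1. ADM had 153 reads in the resting papilla, 334 on day 2 and 233 on day 4, and KRT75 had 112, 310 and 150, although keratins have similar copies between which reads may be split. These records were listed in the growth papilla, pulp and epithelium, where SPP1 was not. In that order SCYL3 had 35, 50 and 31 reads, KRT75 9, 22 and 33, and ADM 63, 73 and 37.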

How the data were processed

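Total RNA libraries from 6 groups, 1 library each, were grouped by their stage labels. The authors deposited whole-number counts per chicken RefSeq transcript record and a per-million column (RPM), which the file headers call TPM although it was not divided by length. The RPM column served to recover library totals from records with at least 500 counts. Per the submitters' processing notes the build was mm10, a mouse build; no aligner, counting rule or strand setting is stated there. Of 10964 records, 4821 carried a symbol, 5008 and 10 were named by gene identifier and accession through a RefSeq table (assembly GRCg7b) and 1125 kept no symbol.

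TMM factors (edgeR 4.0.16, R 4.3.3) over 6 libraries were 0.997 (growth papilla), 1.02 (pulp), 0.688 (epithelium), 1.09 (resting papilla), 1.12 (day 2) and 1.17 (day 4). A record was called at 2-fold on log2 of scaled CPM plus 1, with at least 20 reads in 1 library of the pair. Intervals are Poisson or conditional binomial (Clopper-Pearson), at 95%, from Python 3.11.15 with scipy 1.17.1; they cover counting error only. The calls were tested on simulated counts drawn with Poisson counting error only. Those counts held no spread between birds or libraries, so they cannot check the calls against it.

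The 5 genes and the lists were chosen with earlier results of these data known. Named genes were the 5, up to 3 per list and comparison by absolute log2 ratio with at least 100 reads, and 5 like records per gene, of which 1 is not reported here. The 12 alternatives changed scaling, pseudocount, filter, size rule or record unit. Gene order alone was taken from the RefSeq table, and no sequences were used here.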

Additional observations from a re-analysis of the deposited data

How the results depend on the processing

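With 1 library per group no library could be left out, and no paired analysis was possible because each group has a single library. Of 351 log2 ratios of the 5 genes under the 12 alternatives, 335 moved by less than their counting interval, 16 moved further and 0 that had been past 2-fold changed sign. Settings that changed only the filter or the size rule leave a log2 ratio as it was, so their rows are among the 335 by construction. Each gene has 1 record, so summing records changed its ratio only through the scaling factors. The 335 is therefore not a measure of robustness. Of ratios within 2-fold, 2 changed sign, COMP in pulp over epithelium and DCN in growth over resting papilla, both with library totals alone. Counts of the genes past 2-fold changed as follows. With library totals alone, 2 in place of 1 were higher in pulp than epithelium and 2 in place of 1 lower in growth than resting papilla. With a 4-fold rule, 0 in place of 1 were higher in pulp than epithelium, 0 in place of 1 higher on day 4 than in the resting papilla, and 1 in place of 2 lower on day 4 than day 2. At a minimum of 200 reads, 0 in place of 1 were lower in growth than resting papilla and 0 in place of 1 higher on day 4 than in the resting papilla, since SPP1 fell under that minimum. POSTN, at 99 reads in the growth papilla, fell under it too and left the genes higher there than in the epithelium or the pulp. With a pseudocount of 5, 0 in place of 1 were higher on day 4 than in the resting papilla.

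Counts over all records moved by over 1.5 times as follows. With library totals alone, 861 records were lower in growth papilla than epithelium and 761 lower in pulp than epithelium. Records higher and lower with a 4-fold rule were 856 and 493 for growth papilla over epithelium, 301 and 410 for growth papilla over pulp, 1013 and 463 for pulp over epithelium, 52 and 82 for growth over resting papilla, 104 and 39 for day 2 over resting, 69 and 44 for day 4 over resting, and 18 and 24 for day 4 over day 2. At a minimum of 200 reads they were, in the same order of comparisons, 459 and 541, 299 and 502, 767 and 577, 165 and 100, 113 and 95, 115 and 128, and 30 and 54. With no filter they were 899 and 798 for growth over resting papilla, 803 and 671 for day 2 over resting, 898 and 714 for day 4 over resting, and 526 and 544 for day 4 over day 2. With a pseudocount of 5 they were 306 and 246, 250 and 168, 254 and 219, and 77 and 102 in that order, and 810 were lower in growth papilla than pulp. Fewer or more records are tested under another filter, and the cause of the other shifts was not tested. Low read numbers limit POSTN and TNFRSF11B in pulp and epithelium, at 3 to 24 reads, and SPP1 in the 3 growth-phase libraries, where it is known only as under 2 counts. The pulp and epithelium were the deepest libraries, at 5683214 and 6064791 reads.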
